A study of Mus musculus with 20 samples.

Results

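Neurons restrain microglia, the resident macrophages of the brain, through surface proteins that engage receptors on myeloid cells. Described here are 6 genes of this signalling, chosen by name: the ligand genes Cx3cl1, Cd200 and Cd47 and the receptor genes Cx3cr1, Cd200r1 and Sirpa. All 6 of 6 were found among the 20375 genes of both deposited tables. The tables compare C57BL/6 mice given CDS by injection into the prefrontal cortex with mice given PBS, a buffered saline, by RNA-seq of the medial prefrontal cortex. CDS is an agent that the labels do not spell out, and the series title names a microglia depletion model. The 20 samples form 4 groups of 5. For each agent, 1 group was taken on postnatal day 47, when 5 days had passed since the injection (5 dpi), and 1 on postnatal day 84, at an age of 12 weeks and 6 weeks from the injection. It is not stated whether the samples of a group came from separate animals, so the q-values measure the spread between these samples. For each gene and time they hold the log2 ratio of CDS to PBS (log2 fold change) with its q-value, a p-value adjusted for the number of genes tested. They hold no per-sample values, so the depth is unknown and the level of 1 gene cannot be set against that of another.

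The 3 ligands and their receptors form separate pairs. CX3CL1, or fractalkine, is a chemokine carried by neurons as a membrane protein or released by proteases, and its receptor CX3CR1 is a G protein-coupled receptor that microglia carry in the healthy brain. CD200, a membrane glycoprotein of neurons and endothelium, binds CD200R1, an inhibitory receptor of myeloid cells that recruits the adaptors DOK1 and DOK2. CD47 is carried by nearly all cells as a "do not eat me" signal, and its receptor SIRPA, which recruits the phosphatases SHP-1 and SHP-2, is found on myeloid cells and also on neurons.

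From the coding sequence, 1 stretch is given for the ligand that founds its chemokine class and for each receptor. Each gene was searched for 1 motif alone, chosen beforehand, so the stretches do not compare the receptors. The stretches are coding bases of GENCODE M21 transcripts on GRCm38, read 5′ to 3′ on the strand of the gene. Capitals mark the codons of a motif found by an in-frame search of the coding strand alone. In Cx3cl1 (chr8:94778030-94778095, plus strand) it is the CX3C motif, a pair of cysteines with 3 residues between them. In Cx3cr1 (chr9:120051918-120051986, minus strand) it is the DRY motif of G protein-coupled receptors. In Cd200r1 (chr16:44794209-44794280, plus strand) it is the NPXY motif that adaptors bind once it is phosphorylated. In Sirpa (chr2:129629927-129630181, plus strand) there are 3 matches to the ITIM, the tyrosine motif that binds SHP-1 and SHP-2. The ITIM search asked for isoleucine, valine, leucine or serine as the first residue. A tyrosine codon of the Sirpa stretch with threonine at that place (acagaatat) was therefore not marked, so the matches need not be all tyrosine sites of SIRPA.
Cx3cl1: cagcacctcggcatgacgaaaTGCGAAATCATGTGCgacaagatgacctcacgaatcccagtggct
Cx3cr1: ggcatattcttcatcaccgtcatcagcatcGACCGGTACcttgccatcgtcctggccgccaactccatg
Cd200r1: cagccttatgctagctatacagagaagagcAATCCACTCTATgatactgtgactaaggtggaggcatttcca
Sirpa: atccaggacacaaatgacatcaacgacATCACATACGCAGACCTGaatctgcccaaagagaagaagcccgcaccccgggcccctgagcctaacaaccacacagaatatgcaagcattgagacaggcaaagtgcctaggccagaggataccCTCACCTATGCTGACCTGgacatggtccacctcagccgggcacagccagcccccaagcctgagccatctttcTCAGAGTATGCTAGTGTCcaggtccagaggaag
These patterns are common in coding sequence. Of 21492 mouse protein-coding genes, 23.9% hold the CX3C pattern, 8.13% the DRY, 3.62% the NPXY and 49.1% the ITIM pattern somewhere in frame, so that a match describes the sequence and is no evidence of function.

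At 5 dpi, Cx3cr1 was lower in CDS than in PBS cortex, and no other member passed the threshold of q under 0.05. In the authors' deposited table its log2 fold change was -1.59, which left 33.3% of the PBS level (95% interval 26.5% to 41.8%, q = 3.69e-18). The interval rests on a standard error of 0.17 implied by the deposited fold change and q. Of the 6 members, 1 was called at 5 dpi, where 5.92% of all genes were, 2.75% higher and 3.18% lower. Among 15448 protein-coding genes, 0.744% had a lower log2 fold change than Cx3cr1. Since these are bulk samples, fewer microglia and less Cx3cr1 RNA per microglial cell cannot be told apart.

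None of the 3 ligands was called at 5 dpi. Cx3cl1 stood at 97.6% of PBS (interval 78.1% to 122%, q = 0.944), which is -0.03 on the log2 scale of the authors' deposited table. Cd200 was the ligand with the narrowest interval, at 104% of PBS (97.9% to 111%, q = 0.509) and 0.06 on the log2 scale of the authors' deposited table. Both lay close to the PBS level, and the interval of Cd200 reached no further than 111% of it. Cd47 was lower in value but not called, at 78.3% of PBS (59.9% to 102.5%, q = 0.324), or -0.35 on the log2 scale of the authors' deposited table. Its unadjusted p was 0.0751, recovered from the deposited q-values of the fit across all genes, of which 19.1% had an unadjusted p under 0.05.

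The other receptors were not called either. Sirpa stood at 94.4% of PBS (interval 87.7% to 102%, q = 0.419), or -0.08 on the log2 scale of the authors' deposited table. Cd200r1 stood at 93.5% of PBS with a wide interval of 66.1% to 132% (q = 0.889, log2 fold change -0.10, the authors' deposited table). A loss of Cd200r1 as large as that of Cx3cr1 lay outside this interval, while smaller changes in either direction, down to 66.1% of PBS, lay within it.

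**Figure D1:**
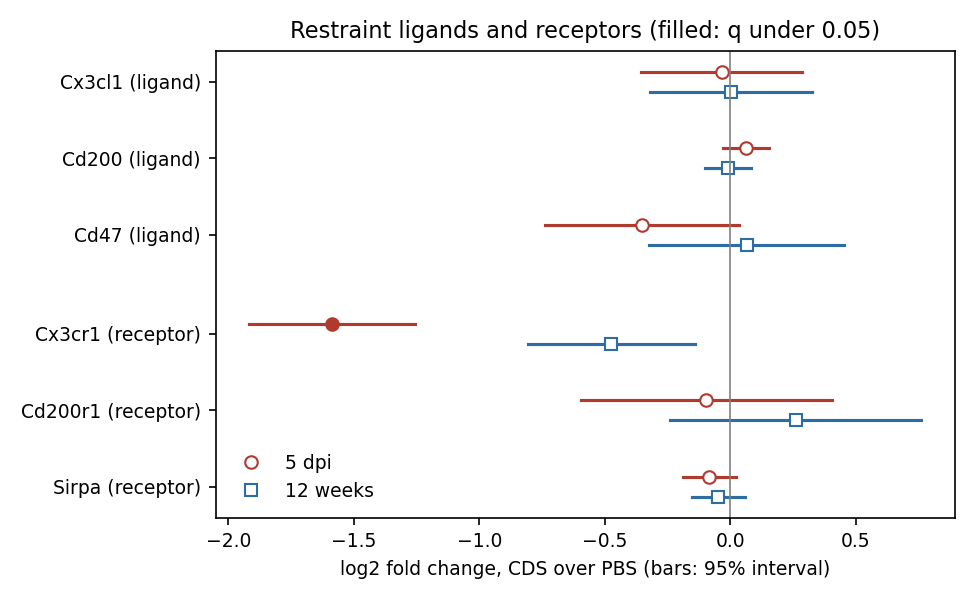
Log2 fold change of CDS over PBS (horizontal axis) for the 3 ligands and 3 receptors at 5 dpi (circles) and 12 weeks (squares), with 95% intervals from the implied standard errors as bars; filled symbols have a deposited q under 0.05. Cx3cr1 at 5 dpi, at -1.59, is the 1 filled symbol, Cx3cr1 at 12 weeks is at -0.47, and the other members at both times lie between -0.35 and 0.26.

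Ligand and receptor were set against each other as the difference of their log2 fold changes. Both genes of a pair come from the same libraries, so their errors may be correlated by an unknown amount. The interval therefore uses the sum of both implied standard errors, the widest that any correlation allows. At 5 dpi Cx3cl1 lay 1.55 above Cx3cr1 on the log2 scale (interval 0.90 to 2.20), so that the ratio of ligand to receptor RNA was 2.93 times that in PBS cortex. The difference was 0.16 for Cd200 and Cd200r1 (-0.43 to 0.75) and -0.27 for Cd47 and Sirpa (-0.76 to 0.23). The interval held 0 for both of these pairs, which leaves room for a change of the ratio of up to 1.68-fold for the first and for a ratio as low as 0.589 of PBS for the second.

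**Figure D2:**
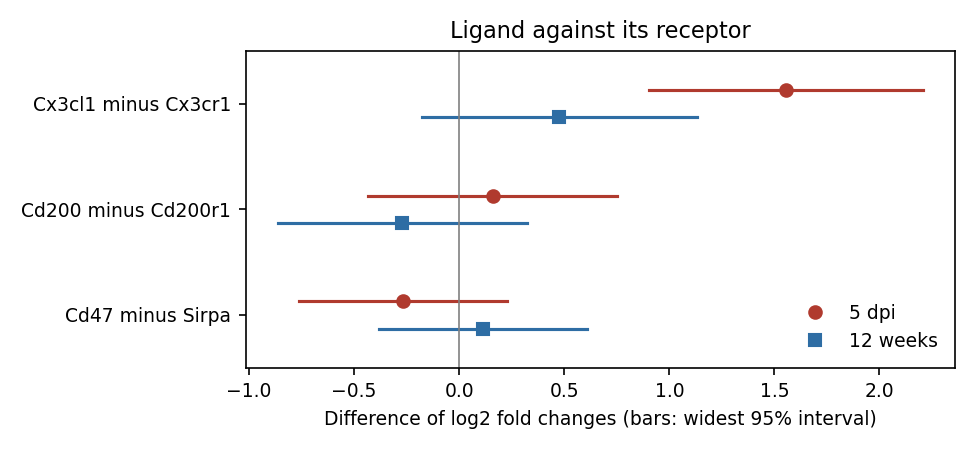
Difference of the log2 fold changes, ligand minus receptor (horizontal axis), for the 3 pairs at 5 dpi (circles) and 12 weeks (squares); bars are the widest 95% intervals, from summed standard errors. The Cx3cl1 and Cx3cr1 pair at 5 dpi, at 1.55, is the 1 whose bar does not reach 0.

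The receptors also differed among themselves at 5 dpi. Relative to Cx3cr1, the ratio of CDS to PBS was 2.81 times larger for Cd200r1 (interval 1.58 to 5.00) and 2.84 times larger for Sirpa (2.09 to 3.84), with the same widest intervals. Sirpa and Cd200r1 differed by 0.01, and the interval of -0.59 to 0.62 allows a ratio of up to 1.54-fold. These 3 differences between receptors were added after the values were seen.

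The fall of Cx3cr1 was of the size seen in microglia markers. All 13 of 13 markers listed for microglia were lower at 5 dpi, with a median log2 fold change of -1.49 and a range from -2.78 to -0.50 in the authors' deposited table. Over all 20375 genes the median was -0.02. Siglech, a sialic acid-binding lectin, and P2ry12, a purinergic receptor, were the lowest, and Aif1, which encodes IBA1, was the least lowered. Cx3cr1 lay 0.10 below the marker median, with 6 markers lower and 7 higher than it. By contrast all 13 markers lay below each of the other members, Cd200r1 and Sirpa included; their values against the marker median were 1.40 for Cd200r1 and 1.41 for Sirpa.

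CD200R1 and SIRPA are not restricted to microglia, and markers of other cells that carry them moved in their own ways. Border macrophages line the vessels and meninges; of their 7 markers Cbr2 rose, at 1.06, and Cd163 fell, at -3.62, with a median of 0.53 (log2 fold changes of the authors' deposited table). Of 5 measured markers of monocytes and neutrophils, 2 rose, Ccr2 at 1.26 and Itgal at 1.58, which encode a chemokine receptor and an integrin subunit, with a list median of 0.48 and a range of -0.89 to 1.58 in the authors' deposited table. Of all genes, 2.75% were called higher and 3.18% lower at 5 dpi. The part of border macrophages, monocytes and neutrophils in the values of Cd200r1 and Sirpa was not tested. SIRPA is found on neurons too, and their part in the value of Sirpa was not tested either. The lymphocyte markers Cd3e, Cd3d, Cd8a and Ms4a1 and the monocyte markers Ly6c2 and Plac8 were not listed in the tables.

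Markers of neurons, which carry the ligands, had list medians from 0.02 for excitatory neurons to 0.16 for neurons in general at 5 dpi (the authors' deposited table). Of 8 general neuron markers 2 rose, the tubulin Tubb3 by 0.30 and the enolase Eno2 by 0.16, in the authors' deposited table. Of all genes, 2.75% were called higher and 3.18% lower at 5 dpi. Among 5 excitatory neuron markers the transcription factor Neurod2 rose by 0.39, and among 6 inhibitory neuron markers the GABA-synthesising enzyme Gad1 fell by 0.35 in the authors' deposited table. The 4 endothelial markers, of cells that also carry CD200, had a median of 0.00 and none was called, and none of the 5 astrocyte markers was (median 0.20, the authors' deposited table). The oligodendrocyte lineage moved apart: all 4 precursor markers fell, with a median of -2.87, while the 4 markers of mature oligodendrocytes were not called at a median of 0.58 (the authors' deposited table). The part of these shifts in the values of Cd47, which nearly all cells carry, was not tested.

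**Figure D3:**
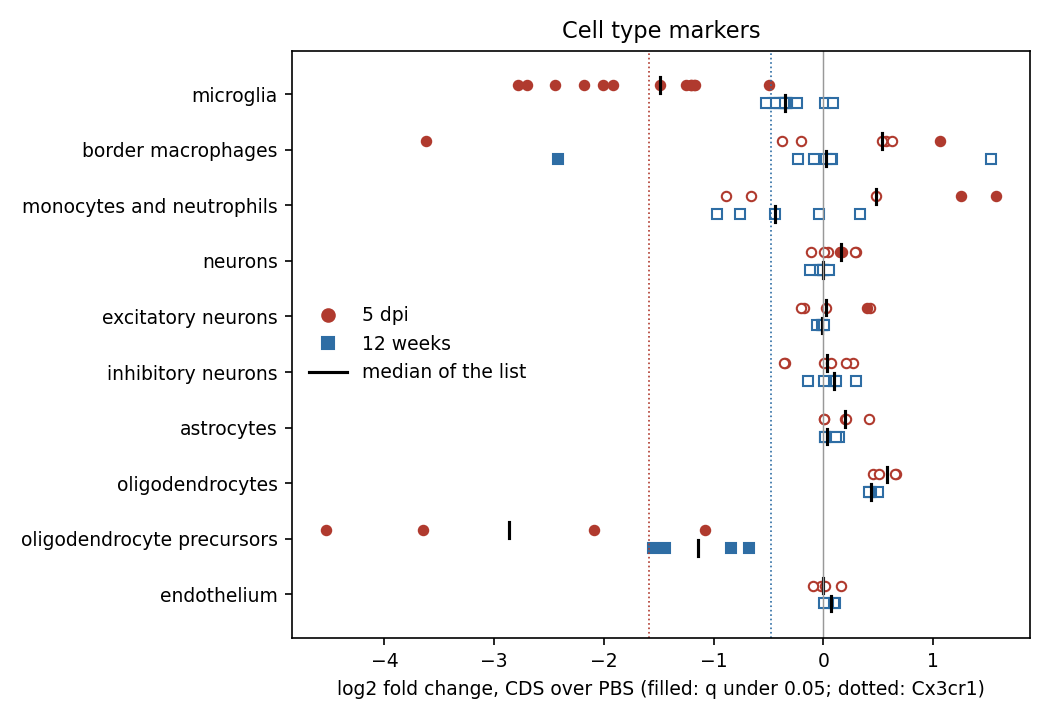
Log2 fold change of CDS over PBS (horizontal axis) for each measured marker of 10 cell types at 5 dpi (circles) and 12 weeks (squares); filled symbols have a deposited q under 0.05, black bars are list medians, and dotted lines mark Cx3cr1 at both times. Cx3cr1 at 5 dpi, at -1.59, falls within the microglia markers, whose median was -1.49, and away from the neuron markers, whose median was 0.16.

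An unnamed row of the tables lies beside Cx3cr1. Its gene ID belongs to Gm33858 in GENCODE M21, an antisense transcript (chromosome 9, 120068996 to 120070622, plus strand, GRCm38) that begins 700 bases upstream of the RefSeq start of Cx3cr1 on the opposite strand. Gm33858 fell as well at 5 dpi, with a log2 fold change of -2.37 and an implied standard error of 0.55 in the authors' deposited table (q = 0.00113), which left 19.3% of the PBS level. It overlaps the Cx3cr1 locus as GENCODE draws it by 884 bases. Strand handling in counting is not given in the sources used here, so reads of the overlap cannot be assigned to either gene. The libraries themselves were stranded, per the labels' protocols.

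In GENCODE the Cx3cr1 locus spans 168.3 kb (chromosome 9, 119901616 to 120069879, minus strand), against 19.6 kb in RefSeq (120048683 to 120068296). The GENCODE locus reaches further at both ends, mostly downstream. Wdr48, Gorasp1, Ttc21a, Csrnp1 and Xirp1, protein-coding genes inside or across that span, were not called, with log2 fold changes from -0.02 to 0.51 at 5 dpi in the authors' deposited table. Of the other members, Cx3cl1 spans 10.4 kb (chromosome 8, 94772009 to 94782427, plus strand) and Sirpa 39.4 kb (chromosome 2, 129592835 to 129632228, plus strand). Cd200r1 (44765736 to 44794978, plus strand), Cd200 (45382135 to 45409053, minus strand) and Cd47 (49800533 to 49915010, plus strand) all lie on chromosome 16, the first pair 0.587 Mb apart. None of these genes overlaps another annotated gene.

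At 12 weeks none of the 6 members was called by the authors' fit, where 0.191% of all genes were, 0.0933% higher and 0.0982% lower. Cx3cr1 remained the lowest in value, at 72.0% of PBS (interval 57.2% to 90.6%) and a log2 fold change of -0.47 as the authors' deposited table gives it (q = 0.684). Its unadjusted p, recovered from the q-values of the fit across all genes, was 0.00517. A p could be recovered for 1.33% of all genes alone, and every one of these was under 0.05. That share is set by the highest q that the remaining genes have in common, so it is not the share of all genes under 0.05. The other 5 members shared the highest q of the table with 20103 genes in all, for which only a lower limit of 0.0134 on the unadjusted p is known. Their errors at 12 weeks were therefore taken from the same gene at 5 dpi.

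The ligands had values near the PBS level at 12 weeks. In the authors' deposited table the log2 fold change was 0.00 for Cx3cl1, -0.01 for Cd200 and 0.06 for Cd47, or 100.2%, 99.3% and 105% of PBS. Sirpa stood at 96.7% and Cd200r1 at 120% of PBS, with log2 fold changes of -0.05 and 0.26 in the authors' deposited table. With borrowed errors the interval of Cd200r1 ran from 84.7% to 169% of PBS. Those of the ligands ran from 80.2% to 125% for Cx3cl1, 93.2% to 106% for Cd200 and 79.9% to 137% for Cd47. Cx3cl1 lay 0.48 above Cx3cr1, and the widest interval of -0.18 to 1.13 held 0. The difference was -0.27 for Cd200 and Cd200r1 (-0.86 to 0.32) and 0.11 for Cd47 and Sirpa (-0.38 to 0.61).

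Microglia markers had a median of -0.35 at 12 weeks, with none of 13 called and 11 below 0 in the authors' deposited table. Cx3cr1 lay 0.13 below that median, with 1 marker, the adhesion ligand Selplg, lower than it. Markers of other cells that were still called were Cd163 at -2.42 and all 4 oligodendrocyte precursor markers, whose median was -1.14 (the authors' deposited table).

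The value of Cx3cr1 changed between the times, and that of no other member passed the test of the change. The difference, 12 weeks minus 5 dpi, was 1.11 on the log2 scale for Cx3cr1 (standard error 0.24, interval 0.64 to 1.58), with an adjusted p of 0.00205 by a two-sided z test over all 20375 genes. With every 12-week standard error 1.5 times larger that call was lost (adjusted p = 0.163 by the same test over all genes). Of all genes, 0.432% differed between the times by this test, 0.348% in the direction of Cx3cr1 and 0.0834% in the other. Among microglia markers 11 of 13 did, most of them with a 12-week error borrowed from 5 dpi. The adjusted p of the other members ranged from 0.834 for Cd47 to 0.989 for Cx3cl1. Cd47 differed by 0.42 (interval -0.13 to 0.97) and Cd200r1 by 0.36 (-0.35 to 1.06), and both intervals held 0. For Cd200 and Sirpa the intervals were narrower, -0.20 to 0.06 and -0.11 to 0.19.

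**Figure D4:**
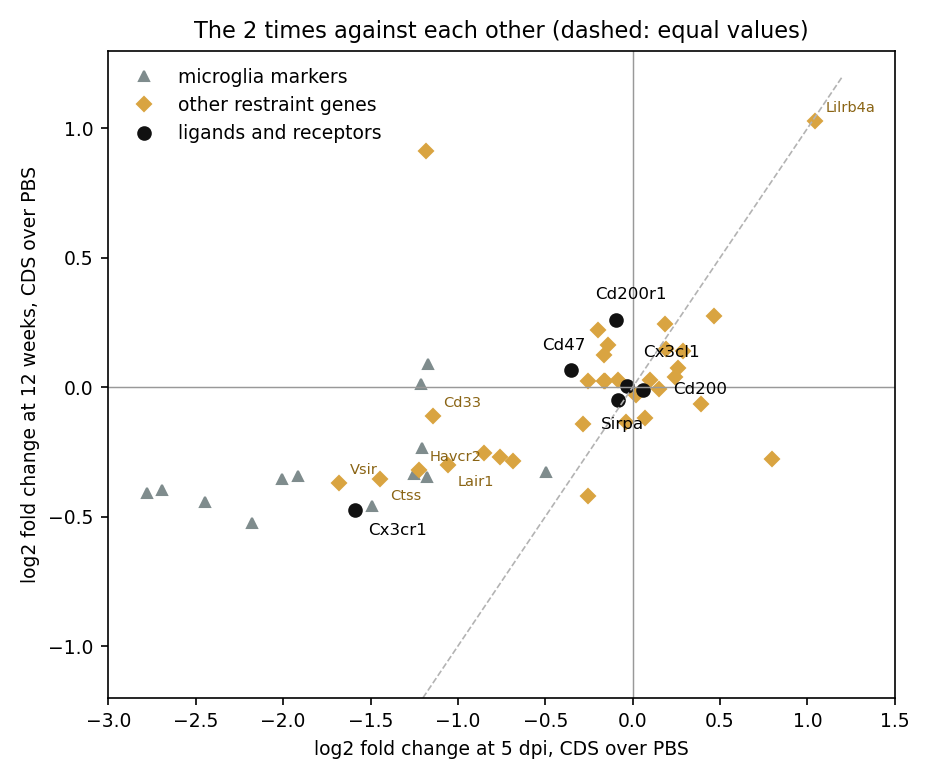
Log2 fold change of CDS over PBS at 5 dpi (horizontal axis) against 12 weeks (vertical axis) for the 6 ligands and receptors, 32 other restraint genes and 13 microglia markers; each point is a gene and the dashed line marks equal values. Cx3cr1, at -1.59 and -0.47, lies with the microglia markers. The other 5 members lie between -0.35 (Cd47 at 5 dpi) and 0.26 (Cd200r1 at 12 weeks) on both axes.

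By distance over the pair of log2 fold changes, among genes of like standard error, the 5 protein-coding genes nearest to Cx3cr1 of 5521 candidates were Hpgds, Bin2, Csf1r, Vsir and Ctss. Hpgds, which encodes a prostaglandin D synthase, stood at -1.54 at 5 dpi and -0.43 at 12 weeks in the authors' deposited table. Csf1r, the receptor on which microglia depend for survival, stood at -1.49 and -0.46, and the membrane adaptor Bin2 at -1.52 and -0.54 in the same deposited table of the authors. The genes nearest to the other members were themselves not called at either time. They were Ppp1r13b, Eif3i, Vps26c, Msrb2 and Wtip for Cx3cl1, Hnrnpk, Slc41a2, Ddx39b, B3galt2 and Uhmk1 for Cd200, and for Cd47 they included Itga10, Smtnl2, Fam228b and Eif4ebp2. For the receptors they were Acot3, Myrf, Ccdc18, Rarb and Sptssb for Cd200r1 and Sike1, Slc25a40, Cyfip1, Srpk1 and Ppm1g for Sirpa. Likeness over 2 comparisons is a coarse measure, and many genes lie near 0 on both.

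The wider machinery of restraint was taken from 5 lists of 38 genes, of which 32 were measured. At 5 dpi 6 of the 32 fell and 1 rose, where 3.18% of all genes were lower and 2.75% higher. Their median log2 fold change was -0.15, against -0.02 for all genes, in the authors' deposited table. At 12 weeks none was called by the authors' fit, and its unadjusted p could be recovered for Vsir and Lair1 alone. For the others only the lower limit of 0.0134 is known, so an unadjusted p under 0.05 is not excluded for them. The 6 falls at 5 dpi ran from -1.68 for Vsir to -0.85 for Inpp5d. They lay inside the span of the 13 microglia markers at that time, -2.78 to -0.50. These are bulk samples, and the part of microglia number in the 6 falls was not tested.

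Other inhibitory receptors of myeloid cells held most of the falls. Of 12 measured, 4 fell and none rose at 5 dpi, and the list median was -0.72 (the authors' deposited table). The shares of all genes called at that time were 3.18% lower and 2.75% higher. Vsir, which encodes the checkpoint receptor VISTA, fell to 31.2% of PBS (log2 fold change -1.68, implied standard error 0.14, q = 4.63e-28, the authors' deposited table). Havcr2, which encodes TIM-3, fell by 1.22, the sialic acid-binding Cd33 by 1.14 and the collagen receptor Lair1 by 1.06 (q = 1.61e-05, 2.83e-08 and 6.56e-17, the authors' deposited table). Microglia markers fell at 5 dpi too, 13 of 13, and whether these 4 falls go beyond a fall in microglia number was not tested. The other 8 receptors did not pass. Among them Cd22 stood at -1.18 with an implied standard error of 0.57 and the Fc receptor Fcgr2b at -0.76, while Pilra stood at 0.80 and Lilrb4a at 1.05 (q = 0.23, 0.113, 0.267 and 0.0722, the authors' deposited table).

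At 12 weeks Vsir, Havcr2 and Lair1 stood at -0.37, -0.32 and -0.30 and Cd33 at -0.11 in the authors' deposited table. The difference between times passed for Vsir at 1.31, Cd33 at 1.03 and Lair1 at 0.76 (adjusted p = 1.95e-07, 0.0144 and 0.00242 by the z test over all genes). It did not pass for Havcr2, at 0.90 (adjusted p = 0.288 by the same test).

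Of 4 genes that handle CX3CL1 or carry the signal of its receptor, 1 fell at 5 dpi. By the same threshold 3.18% of all genes were called lower. Ctss, which encodes cathepsin S, a protease of microglia that can release CX3CL1, fell by 1.45 with an implied standard error of 0.21 in the authors' deposited table (q = 2.37e-09). The membrane proteases that shed CX3CL1 were not called, Adam10 at -0.08 and Adam17 at -0.17, nor was the G protein subunit Gnai2 at 0.15 in the authors' deposited table. At 12 weeks Ctss stood at -0.35 (the authors' deposited table), and its difference between times missed the threshold (1.09, adjusted p = 0.0539 by the z test over all genes).

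Of 7 listed paralogs, adaptors and signalling partners of CD200R1, 5 were measured and 1 fell, as did 3.18% of all genes. Inpp5d, which encodes the lipid phosphatase SHIP1, fell by 0.85 at 5 dpi with an implied standard error of 0.16 in the authors' deposited table (q = 2.43e-05). The adaptors Dok1 and Dok2 stood at -0.28 and 0.39 and Rasa1, a GTPase-activating protein that DOK proteins bind, at 0.02 (the authors' deposited table), and no adaptor was called. Cd200r4, a paralog of Cd200r1 that lies next to it on chromosome 16, stood at -0.14 with an implied standard error of 0.57 in the authors' deposited table. Reads of such paralogs can be shared, so the split between Cd200r1 and Cd200r4 is uncertain. Cd200r2 and Cd200r3 were not listed in the tables.

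Around CD47 and SIRPA, 6 of 9 listed genes were measured, and 1 rose, as did 2.75% of all genes. Thbs2, a matrix thrombospondin of the family that binds CD47, rose by 0.46 at 5 dpi with an implied standard error of 0.14 in the authors' deposited table (q = 0.0234), and stood at 0.28 at 12 weeks. That call was lost at a q under 0.01. The phosphatases that bind phosphorylated SIRPA were not called: Ptpn6, which encodes SHP-1 and is known from blood cells, stood at -0.26 and Ptpn11, which encodes SHP-2, at 0.10 in the authors' deposited table. Qpctl, an enzyme that modifies CD47 at the site that SIRPA binds, stood at 0.24 and the SIRPA-binding adaptor Skap2 at -0.16 in the same deposited table of the authors. The Sirpb1a, Sirpb1b and Sirpb1c paralogs of Sirpa were not listed.

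No gene was called among 5 other restraint ligands and complement regulators, whose median was 0.18 at 5 dpi (the authors' deposited table). The share of all genes called at that time was 5.92%. Those with the smallest q were Icam5, a neuronal adhesion molecule, at 0.26 (q = 0.0864) and the complement regulator Cd59a at 0.19 (q = 0.399) in the authors' deposited table. Unadjusted p under 0.05, recovered from the q-values of the fit across all genes, was found for Icam5 alone of the 5, at 0.00688. The share of all genes under that limit at 5 dpi was 19.1%, so Icam5 alone of 5 is near that share.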

How the data were processed

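RNA-seq libraries of medial prefrontal cortex were made from total RNA after removal of ribosomal RNA with a stranded kit, per the labels' protocols. The submitters' processing notes name STAR, featureCounts and DESeq2 and the build GRCm38.p5, without versions or roles. Per the file headers, the deposited values are log2 fold changes and q-values, 1 of each per gene and time. They gave no per-sample values, so depth per sample is unknown, no replicate could be left out and no new count test was run. Unadjusted p-values were worked back from the deposited q-values on the assumption of Benjamini-Hochberg adjustment across the 20375 genes (q multiplied by rank and divided by the number of genes). The implied standard error is the log2 fold change over the z of that p. Tied q-values leave a range for p, which at 5 dpi spanned no more than 1.04-fold. The same maximal q, 0.999997, was given to 20103 genes at 12 weeks. For them the standard error is the larger of that at 5 dpi and the smallest the tie allows. The ratio of the 12-week to the 5 dpi error had a median of 0.994 (quartiles 0.974 and 1.01) in the 272 untied genes, which are those of small p. Intervals are 1.96 standard errors. The recovery was also run on simulated data made with the same adjustment and with the same error per gene at both times. It could therefore test neither the assumed adjustment nor the borrowing of errors from 5 dpi.

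Members were matched by symbol, other list genes by symbol or, where blank, by gene ID in GENCODE M21 (GRCm38, which held 20300 IDs, 15448 of them protein-coding). Genes named were the 6 members, called genes of the lists (or the 2 with the smallest q), cell type markers and the 5 nearest genes of each member, with a standard error within 1.5-fold. Others, such as uncalled list genes and Gm33858, were chosen after their values were seen. Single values of a few genes of the lists and of the nearest genes are not reported here. The members and lists were chosen with earlier results of these data known. Alternatives were q under 0.01 or 0.1, a fold of at least 1.5, Bonferroni adjustment, protein-coding genes alone, centring, and other standard errors. Python 3.11.15, numpy 2.4.6, pandas 2.3.3, scipy 1.17.1 and matplotlib 3.10.9 were used.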

Additional observations from a re-analysis of the deposited data

Results flagged for a closer look

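The effect of CDS differed between 5 dpi and 12 weeks by the two-sided z test over all genes for the 18 genes given here. Among the members this was Cx3cr1, with a difference of 1.11 on the log2 scale. Among the other restraint genes it was Cd33 (1.03), Lair1 (0.76) and Vsir (1.31). Among the microglia markers the difference was 0.91 for Tmem119, 2.30 for P2ry12, 1.03 for Csf1r, 1.57 for Itgam, 2.37 for Siglech and 1.65 for Gpr34. It was 2.00 for P2ry13, 1.22 for Fcrls, 1.26 for Olfml3 and 1.65 for Selplg. Among markers of other cells it was 2.98 for Neu4, 2.20 for Matn4 and 1.25 for Pdgfra, all of oligodendrocyte precursors, and -2.02 for the leukocyte integrin gene Itgal. Itgal was higher in CDS at 5 dpi, whereas the others were lower there and less low or near 0 at 12 weeks. The 12-week errors of Cd33, Tmem119, P2ry12, Itgam, Siglech, Gpr34, Fcrls, Olfml3 and Itgal were borrowed from 5 dpi.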

How the results depend on the processing

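The count of members called, 1 at 5 dpi and 0 at 12 weeks, was the same at q under 0.01, q under 0.1, a fold of at least 1.5, Bonferroni adjustment and adjustment over protein-coding genes alone. Of 70 such counts, those of the restraint lists included, 66 stayed within 1.5 times. The other 4 were the list around CD47 and SIRPA at 5 dpi, from 1 to 0 at q under 0.01, at a fold of at least 1.5 and under Bonferroni adjustment, and the other ligands at 5 dpi, from 0 to 1 at q under 0.1. Of 24 alternative values of the difference between times, 23 kept their side of the threshold. The exception was Cx3cr1 (1.11), whose adjusted p rose from 0.00205 to 0.163 when every 12-week error was made 1.5 times larger, a setting added after seeing the data. Its call held when tied genes alone had larger errors, which leaves its own error as it was, over protein-coding genes alone, and after centring. All 24 centred log2 fold changes of members moved by less than their standard error, those centred on genes of like span (added after seeing the data) included.

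The 12-week differences between genes depended on the assumed errors. With no correlation between the genes, the intervals of Cx3cl1 minus Cx3cr1 (0.48), Cd200r1 minus Cx3cr1 (0.73) and Sirpa minus Cx3cr1 (0.43) no longer held 0. With the smallest errors that the shared q allows, neither did those of Cx3cl1 minus Cx3cr1 (0.48), Cd200 minus Cd200r1 (-0.27) and Cd47 minus Sirpa (0.11). That setting puts every tied gene at the limit of p by construction. No paired analysis was possible because values of single samples were not analysed here, and for the same reason no replicate could be left out.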

Other observations

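Lilrb4a, an inhibitory receptor of myeloid cells, had nearly the same value at both times, with log2 fold changes of 1.05 at 5 dpi and 1.03 at 12 weeks in the authors' deposited table (q = 0.0722 and 0.999997). Ms4a7, listed here for border macrophages, stood at 0.63 and 1.53 in the authors' deposited table (q = 0.372 and 0.084). Cd22 stood at -1.18 and 0.91 in the authors' deposited table (q = 0.23 and 0.999997), with a difference between times of 2.09 that did not pass (standard error 0.81, adjusted p = 0.366 by the z test over all genes). None of these genes was called at either time, and all were singled out after their values were seen.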
